A study of Mus musculus with 4 samples.

Results

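The non-coding transcripts described here were the 150 most abundant of a table of 18804 genes measured in liver group 1 innate lymphoid cells (ILC1s). They were chosen by level. Of the 4004 genes that the deposited table marks as non-coding, 3998 have no pseudogene in their description, and the 150 with the highest mean FPKM over all 4 libraries were kept. FPKM counts sequenced fragments per kilobase of gene length, relative to the fragments of the library. The levels below therefore describe the choice and are not tested. The difference between genotypes was not used in the choice.

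ILC1s are tissue-resident lymphocytes related to natural killer cells. The 4 RNA-seq libraries were made from liver ILC1s of mice at homeostasis, aged 5 to 8 weeks. Cd200r knockout is represented by replicates 1 and 2, and WT by replicates 1 and 3. CD200R, the product of the targeted gene, is an inhibitory receptor of immune cells, and the title of the series relates it to the cytotoxicity of ILC1s. The labels give neither the exons that the allele lacks, nor the strain, nor whether a library came from 1 mouse or from a pool. A p-value here is set against how far libraries of a genotype differ, part of which may be technical. That spread is estimated in part from other genes of similar level, most of them protein-coding.

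Long non-coding RNAs are transcribed and often spliced like mRNAs but are not known to be templates for a long protein. Some act as RNA in the nucleus, as Malat1 does in nuclear speckles. Others are the spliced carriers of small RNAs: a snoRNA host gene makes small nucleolar RNAs, which guide the chemical modification or cleavage of ribosomal RNA, from its introns, and a microRNA host makes the hairpin precursor of a microRNA. Many have only a catalogue name (Gm and a number, or a code ending in Rik) and no described function. Of the 150 members, 77 had a Gm symbol and 37 a Rik symbol.

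The summed FPKM of a library lay between 511415 and 523717, and low values put the depth at roughly 39022000 to 41068000 reads, an approximate figure. Cd200r1 itself read 111 and 104 FPKM in knockout against 162 and 173 in WT, a fall of 0.64 on the log2 scale (SE 0.09, limma adjusted p = 0.0045), so a large part of the signal over the gene remained in the libraries labelled knockout. Marker genes of other cells also moved with genotype. The 10 conventional natural killer cell markers summed to 286 and 599 FPKM in knockout against 102 and 98.6 in WT, and 9 rose. The 11 macrophage markers summed to 617 and 919 FPKM against 235 and 219, and 6 of the 9 tested rose. The 8 erythroid markers summed to 12513 and 14064 FPKM against 24795 and 26908, and 8 of 8 fell. The 5 neutrophil markers summed to 26.1 and 47.1 FPKM against 18.8 and 8.23, and 2 of the 4 tested rose. Mitochondrially encoded mRNAs held 2.51% and 2.89% of the summed FPKM in knockout and 1.30% and 1.64% in WT. No defining marker of these lists was at 0 in all libraries. Of 11 ILC1 markers tested, 2 rose and 1 fell, the targeted gene Cd200r1 itself, and the sum lay between 5640 and 6540 FPKM in every library. The part of these shifts in the differences below was not tested. Fewer cells of a type and less RNA per cell cannot be told apart in bulk libraries.

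The 150 members held 1.76% and 1.95% of the summed FPKM in knockout replicates 1 and 2 and 2.18% and 2.02% in WT replicates 1 and 3. Most of this came from a single RNA, AW112010, an interferon-inducible transcript of immune cells. Without it the members held between 0.792% and 0.978%. The levels were steeply graded: 2 members had a mean above 1000 FPKM, 7 reached 100, 73 reached 10, and 133 reached 5. The median member had a mean of 9.71 FPKM. No member was at 0 in any library. At the boundary of the choice, 2010016I18Rik (4.28 FPKM) and 1110038B12Rik (4.24) were just inside, and Gm4013 (4.201) and Gm19497 (4.196) just outside. These 4 means lie closer together than the libraries of any 1 of them.

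**Figure D1:**
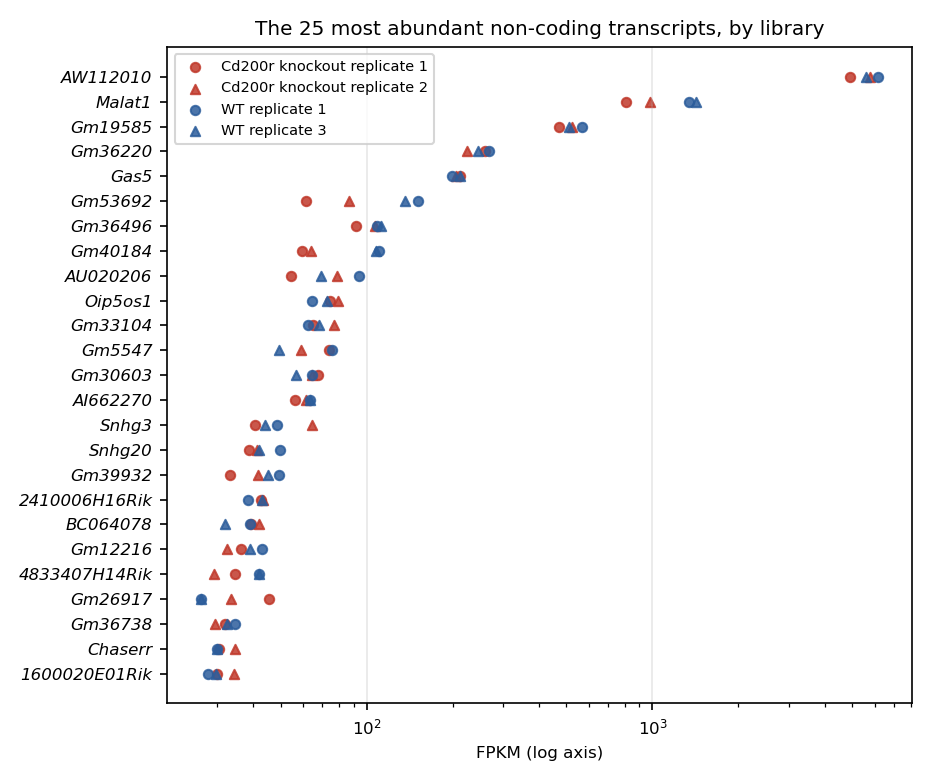
FPKM of the 25 most abundant members (rows, by mean level) in each of the 4 libraries, on a log axis. Red marks are Cd200r knockout and blue marks WT. AW112010 stands at 4928 FPKM or more in every library, and Malat1, Gm53692 and Gm40184 are the rows among the first 8 in which red and blue are clearly apart.

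AW112010, a gene of 2955 bases at chr19:11047612-11050566 on the minus strand (GRCm38.p6), read 4928 and 5766 FPKM in knockout and 6162 and 5572 in WT. The genotypes overlapped, and the difference did not pass the test (log2 difference -0.14, SE 0.09, adjusted p = 0.54). Gm19585 ranked just after Malat1. It lies at chr17:52149289-52163486 and read 472 and 524 FPKM in knockout and 568 and 510 in WT, again with overlap. The closest protein-coding gene at 1 FPKM or more was Satb1, a chromatin organiser of lymphocytes, 316 kb away and at a mean of only 7.34 FPKM. Both genes stand in the list of lncRNAs known from immune cells, and neither passed, nor had an unadjusted p under 0.05.

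Several of the most abundant members lie between genes, near a strongly transcribed neighbour. Gm36496 on chromosome 12 (91.6 and 107 FPKM against 109 and 112) and Gm36723 (28.2 and 24.2 against 31.2 and 30.5) lie 91.4 and 260 kb from Id2, the transcriptional regulator that innate lymphoid cells require. Id2 itself stood at a mean of 2351 FPKM with a log2 difference of 0.03. Gm33104 on chromosome 10 (65.0 and 76.8 FPKM against 62.5 and 68.3) lies 84.6 kb from Ifngr1, a chain of the interferon-gamma receptor, which had a mean of 439 FPKM and a log2 difference of 0.36 (adjusted p = 0.10). None of these members passed.

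Across the 150 members, 4 were higher and 6 lower in knockout at an adjusted p of 0.05, or 6.67% in all. Over all 9476 genes tested, 316 passed (3.33%), with 2.4% higher and 0.939% lower. For the members these shares were 2.67% higher and 4.0% lower. Among 254 other non-coding genes that were tested, 1.97% passed. With 10 calls these shares rest on few genes, and the difference between the sets was not tested. The fit draws part of each member's variance from genes of similar level, and members varied more between replicates than coding genes did. The part of this in the members' share was not tested. Knockout and WT values did not overlap for 28 members that were higher (18.7%, against 24.3% of all genes) and 47 that were lower (31.3%, against 21.7%). The median log2 difference was -0.09 for the members, with 86 of 150 below 0 (57.3%), and 0.003 for all genes. Other tested non-coding genes had a median of -0.08, with 59.8% below 0, and protein-coding genes at or above the level of member 150 had 0.02.

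**Figure D2:**
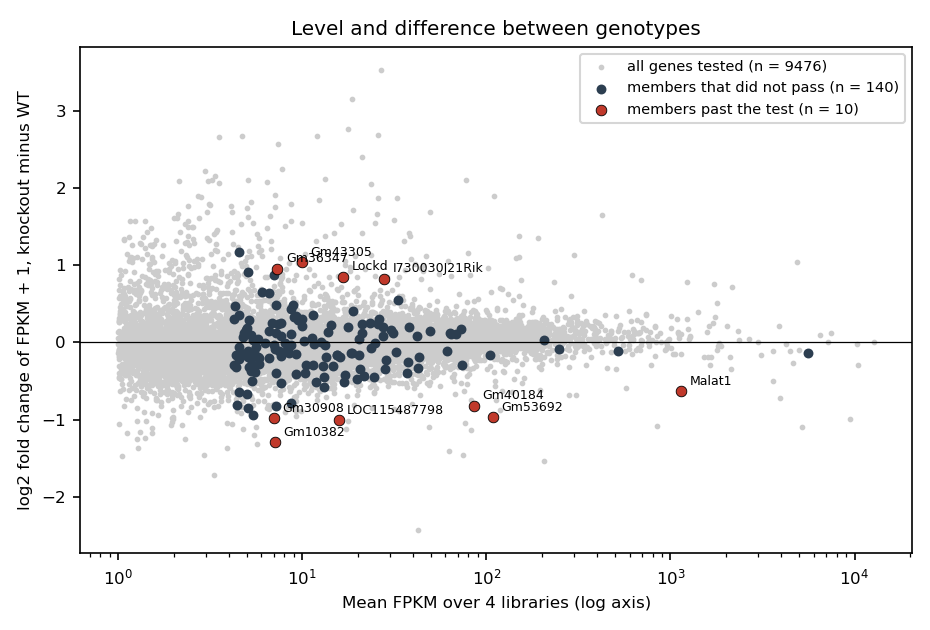
Log2 difference of FPKM + 1 (knockout minus WT) against the mean FPKM (log axis) for the 9476 genes tested (grey), the 140 members that did not pass (dark) and the 10 that did (red, named). Malat1 is the only called member above 1000 FPKM, and the called members lie between -1.30 and 1.04.

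Malat1, the nuclear speckle RNA and the second most abundant member, fell in the knockout libraries. It is an unspliced gene of 6983 bases at chr19:5795690-5802672 on the minus strand. It read 808 and 982 FPKM in knockout and 1346 and 1425 in WT. The knockout libraries were the 2 lowest, and WT was 1.55 times higher on average (log2 difference -0.64, SE 0.10, adjusted p = 0.0058). Leaving out each library in turn gave differences from -0.78 to -0.50. The call of Malat1 was lost with no filter on low genes, and in a fit without the mean-variance trend. Of 6 measured genes for m6A addition or reading and for MALAT1 processing, none passed in the limma test, nor did any have an unadjusted p under 0.05. The smallest p-values there belonged to Mettl14, a subunit of the m6A methyltransferase (log2 difference -0.30, adjusted p = 0.44), and Virma, a subunit of the same complex (-0.23, adjusted p = 0.66).

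Gm40184 had the smallest adjusted p of the members. It spans 1253 bases at chr3:154203809-154205061 on the minus strand and overlaps the opposite strand of Slc44a5, a choline transporter-like gene that was near 0 (mean 0.020 FPKM). It read 59.3 and 63.7 FPKM in knockout and 111 and 108 in WT. Replicates lay close together, and WT was 1.78 times higher (log2 difference -0.82, SE 0.10, adjusted p = 0.0016). Gm53692 read 61.2 and 86.7 FPKM against 152 and 137, and WT was 1.95 times higher (log2 difference -0.97, SE 0.14, adjusted p = 0.0049). The groups were apart, but the knockout replicates differed more than the WT replicates. Gm10382 had the largest fall, from 10.4 and 10.6 FPKM in WT to 4.30 and 3.15 in knockout (log2 difference -1.30, SE 0.20, adjusted p = 0.0055). These last 2 members are known here by name only and have no coordinates.

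The promoters of Malat1 and Gm40184, the abundant called members that were lower and that have an entry, are shown from 250 bases before the start to 50 after (RefSeq, GRCm38.p6), with the start base in capitals.
Malat1, chr19:5802623-5802922, minus strand: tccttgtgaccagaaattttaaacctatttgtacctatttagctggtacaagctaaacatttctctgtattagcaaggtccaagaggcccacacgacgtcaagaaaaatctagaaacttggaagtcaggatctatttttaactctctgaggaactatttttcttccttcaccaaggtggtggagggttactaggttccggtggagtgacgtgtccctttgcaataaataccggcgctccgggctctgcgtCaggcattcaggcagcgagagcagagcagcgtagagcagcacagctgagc
Gm40184, chr3:154205012-154205311, minus strand: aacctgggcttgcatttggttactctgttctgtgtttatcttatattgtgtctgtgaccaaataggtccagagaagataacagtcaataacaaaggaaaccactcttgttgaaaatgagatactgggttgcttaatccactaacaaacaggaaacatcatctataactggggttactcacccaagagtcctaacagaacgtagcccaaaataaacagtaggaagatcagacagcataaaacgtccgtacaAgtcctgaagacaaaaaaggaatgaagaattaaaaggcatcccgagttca
Malat1 holds 10 CG dinucleotides and Gm40184 holds 4, against a median of 8 over all promoters of the table. None of the 9 motifs searched was found in either window. They were CCAAT (in 41.1% of all promoters), TATAAA (15.7%), TGTGGT (18.9%), AGGTGTGA (1.48%), TGANTCA (8.97%), GGGCGG (38.2%), CCGGAAG (9.93%), CACGTG (8.09%) and the interferon-stimulated response element, ISRE (3.99%), each on both strands. Of the 8 called members with a promoter, only Gm36347 holds the ISRE.

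LOC115487798 fell from 22.0 and 20.7 FPKM in WT to 9.26 and 11.0 in knockout, without overlap, and WT was 2.11 times higher (log2 difference -1.01, SE 0.15, adjusted p = 0.0055). This locus of 1990 bases at chr11:87441465-87443454 lies on the plus strand within an intron of Tex14, a germ cell gene that was near 0 here (mean 0.021 FPKM). Near its end it contains Rnu3b1, a gene for the U3 small nucleolar RNA, which acts in the cleavage of the ribosomal RNA precursor. U3 genes exist as near-identical copies, so which copy gave the reads is uncertain, and the table cannot tell reads of U3 from reads of the longer locus. The U3 gene is shown because it lies within the called span (GENCODE, GRCm38), with the first TGATGA and the last CTGA, the letters of C and D boxes, in capitals.
Rnu3b1 in LOC115487798, chr11:87443237-87443451, plus strand: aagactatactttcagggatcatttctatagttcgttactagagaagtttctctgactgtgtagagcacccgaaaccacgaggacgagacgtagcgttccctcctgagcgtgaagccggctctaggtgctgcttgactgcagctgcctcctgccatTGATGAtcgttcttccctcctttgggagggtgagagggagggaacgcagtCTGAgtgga

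Gm30908 at chr2:166471463-166473959 fell as well, reading 5.38 and 3.50 FPKM in knockout and 9.63 and 9.49 in WT (log2 difference -0.98, SE 0.21, adjusted p = 0.031). This call depended on the libraries used: without knockout replicate 2 the difference was -0.73, without WT replicate 1 it was -0.97, and without WT replicate 3 it was -0.99, and none of these passed. Its neighbour 5031425F14Rik read 3.61 and 3.70 FPKM against 5.89 and 6.93 (-0.67, adjusted p = 0.11). Both lie near Prex1, which encodes an activator of Rac GTPases and had a log2 difference of -0.55 (adjusted p = 0.21). Gm50596, within an intron of Prex1 on its strand, had a difference of -0.37.

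Gm43305 was the called member with the largest rise. It read 13.1 and 14.5 FPKM in knockout and 6.21 and 6.17 in WT, a 2.23-fold higher mean (log2 difference 1.04, SE 0.17, adjusted p = 0.0069). Replicates of each genotype nearly coincided. The gene lies at chr14:54292441-54297488 on the minus strand, 68.2 kb beyond Trac, the constant region of the T cell receptor alpha chain. The nearest measured protein-coding gene, Abhd4, had a log2 difference of -0.07. None of the 5 T cell markers passed (2 at an unadjusted p under 0.05). Their sum, 2022 and 1997 FPKM in knockout and 2288 and 2272 in WT, is mostly Cd3g. Cd3e, like Cd3g a chain of the T cell receptor complex, read 18.3 and 20.3 FPKM in knockout and 13.3 and 10.1 in WT (log2 difference 0.69, adjusted p = 0.052). The part of T cell transcripts in the rise of Gm43305 was not tested.

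Lockd, transcribed from chr6:134929092-134951718 downstream of the cell cycle inhibitor gene Cdkn1b, rose from 11.0 and 12.2 FPKM in WT to 21.7 and 21.6 in knockout (1.87-fold, log2 difference 0.85, SE 0.14, adjusted p = 0.0093). The Lockd promoter is known from erythroid cells as an enhancer of Cdkn1b. Cdkn1b, 3.57 kb away, read 5.23 and 3.16 FPKM in knockout and 6.05 and 5.79 in WT, a difference of -0.44 that did not pass (adjusted p = 0.40). Its sign was opposite to that of Lockd.

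The windows of these last 2 members, which were higher in knockout, follow in the same form as above.
Gm43305, chr14:54297439-54297738, minus strand: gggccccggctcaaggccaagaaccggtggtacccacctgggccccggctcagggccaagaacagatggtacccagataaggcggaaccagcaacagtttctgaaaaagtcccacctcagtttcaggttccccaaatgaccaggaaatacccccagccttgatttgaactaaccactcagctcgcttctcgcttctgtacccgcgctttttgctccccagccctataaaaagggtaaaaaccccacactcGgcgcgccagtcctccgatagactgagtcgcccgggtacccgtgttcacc
Lockd, chr6:134928842-134929141, plus strand: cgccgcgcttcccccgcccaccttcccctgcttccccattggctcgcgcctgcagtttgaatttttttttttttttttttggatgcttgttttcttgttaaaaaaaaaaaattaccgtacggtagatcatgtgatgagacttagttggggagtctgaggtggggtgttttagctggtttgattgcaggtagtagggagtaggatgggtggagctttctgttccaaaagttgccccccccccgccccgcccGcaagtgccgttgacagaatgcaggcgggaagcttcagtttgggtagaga
Gm43305 has 15 CG dinucleotides and a TATAAA. Lockd has 13 CG dinucleotides, a CCAAT and a GGGCGG. The remaining motifs of the 9 were not found in them.

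I730030J21Rik at chr15:100730505-100732737, 1.13 kb from Galnt6, read 34.5 and 37.0 FPKM in knockout and 17.3 and 22.4 in WT (1.80-fold, log2 difference 0.82, SE 0.14, adjusted p = 0.011). Galnt6, a glycosyltransferase gene, had a log2 difference of 0.003. Without WT replicate 1 the rise of I730030J21Rik was 0.65 and did not pass. Gm36347 at chr1:129608725-129616189 overlaps the opposite strand of Thsd7b, which was near 0 (mean 0.070 FPKM). It read 8.44 and 11.6 FPKM against 5.17 and 4.14 (2.15-fold, log2 difference 0.95, SE 0.21, adjusted p = 0.033). Its groups did not overlap, but without knockout replicate 2 the difference was 0.74 and without WT replicate 3 it was 0.82, and neither passed.

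**Figure D3:**
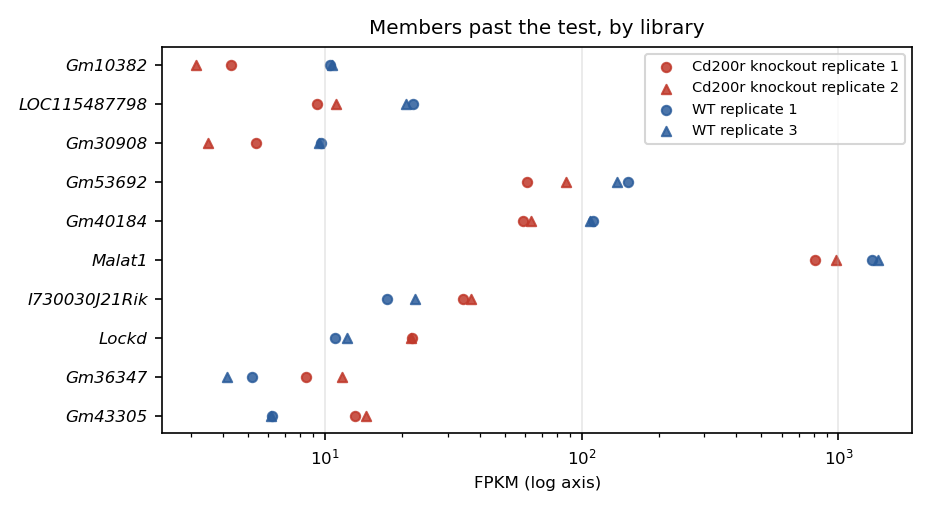
FPKM of the 10 members past the test in each library, on a log axis, ordered from the largest fall (Gm10382, top) to the largest rise (Gm43305, bottom). In each row the 2 red knockout marks lie on 1 side of both blue WT marks.

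Just outside the threshold stood Gm52568 (log2 difference -0.82, adjusted p = 0.051), Gm11423 (1.17, adjusted p = 0.057), Gm8817 (-0.79, adjusted p = 0.060) and Epb41l4aos (0.91, adjusted p = 0.062). They were named after their values were seen, apart from Gm8817. Gm11423 had the largest positive difference of all members, and its knockout replicates were far apart (4.52 and 9.01 FPKM, against 2.82 and 1.87 in WT).

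The number of calls changed with the settings of the fit, for the members and for all genes alike, and the cause was not tested. With no filter on low genes 0 of 150 members passed (27 at an unadjusted p under 0.05, against 36 in the filtered fit), and 0 of the 18155 genes then tested (1898 at an unadjusted p under 0.05). Without the mean-variance trend 2 members passed, Gm43305 and Gm10382, and 0.739% of all genes. Without knockout replicate 1, 21 members passed, and 6.06% of all genes against 3.33% before, in a fit where the lone knockout library is assumed to vary as the WT libraries do.

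The snoRNA hosts were the largest group with a described role, with 18 members from 4.24 to 250 FPKM. The group holds listed hosts and members whose span contains a snoRNA gene, whether or not it lies in an intron. Genes that GENCODE types as scaRNA, the related small RNAs of Cajal bodies, were counted too, as in Snhg20 and 2900076A07Rik. Of the 18 members 0 rose and 1 fell in the limma test, the U3 locus above, and 17 did not pass. The U3 locus was counted by its span alone and is not a listed host. Of the 20 listed hosts tested, in and outside the members, 0 fell. At an unadjusted p under 0.05 there were 2 of the 18, against 15.5% of all genes. The median log2 difference of the 18 was 0.11, with 11 above 0, against 0.003 for all genes tested. Gm36220, a locus of only 297 bases on chromosome 11 that contains Snord104, was the most abundant and read 261 and 224 FPKM in knockout and 268 and 246 in WT. Gas5, the growth arrest-associated host of box C/D snoRNAs, read 212 and 205 FPKM against 198 and 212. For both, the genotypes overlapped, and the sign of each difference flipped when a library was left out, for Gas5 also with 2 other scalings.

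Next in level were Snhg3 (40.5 and 64.4 FPKM in knockout, 48.6 and 44.0 in WT), Snhg20 (38.7 and 41.2 against 49.6 and 41.9) and 2410006H16Rik (42.8 and 43.2 against 38.4 and 43.1). The sign of the Snhg3 difference turned from 0.14 to -0.19 without knockout replicate 2. The 2 largest differences of hosts that did not pass were Epb41l4aos at 0.91 and Snhg17 at -0.50. The snoRNA hosts thus lay on both sides of 0.

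**Figure D4:**
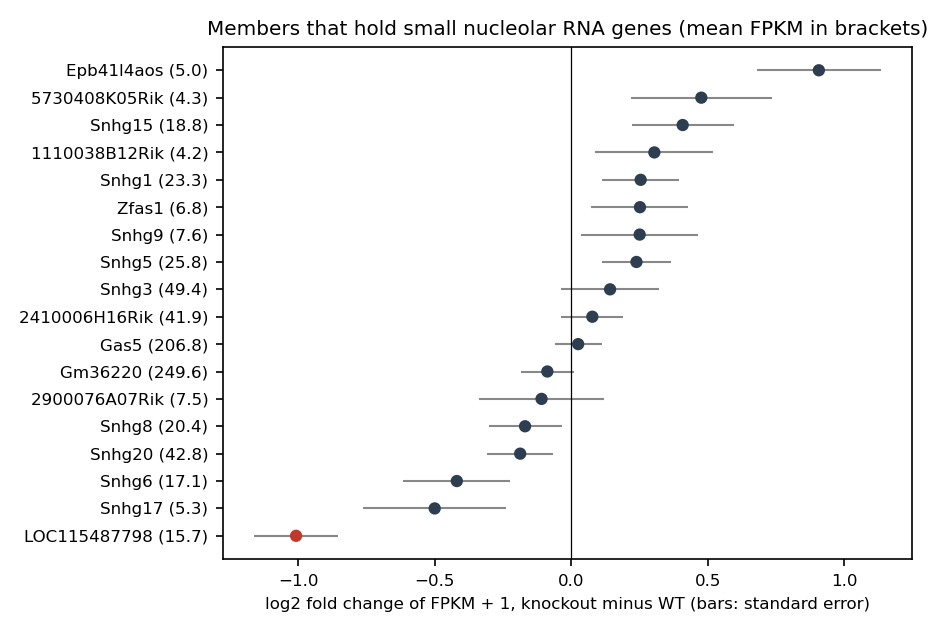
Log2 difference of FPKM + 1 (knockout minus WT) of the 18 members of the snoRNA host group, with standard errors and mean FPKM in brackets. Only LOC115487798 (red) passed the test. Gas5 and Gm36220, the most abundant hosts, lie at 0.03 and -0.09.

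The hosted RNAs are shown for the 2 most abundant hosts, since the small RNA and not the spliced host is the known product. Sequences are from GENCODE transcripts (GRCm38), with the first TGATGA and last CTGA in capitals.
Snord104 in Gm36220, chr11:106500993-106501062, plus strand: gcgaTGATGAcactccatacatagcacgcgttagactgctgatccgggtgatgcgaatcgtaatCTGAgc
Snord47 in Gas5, chr1:161038082-161038158, plus strand: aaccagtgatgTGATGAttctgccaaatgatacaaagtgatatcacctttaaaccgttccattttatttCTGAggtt
Snord80 in Gas5, chr1:161037601-161037681, plus strand: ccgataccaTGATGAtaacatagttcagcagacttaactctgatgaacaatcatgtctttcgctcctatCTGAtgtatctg
The table measures the host loci, and these small RNAs were not measured apart from them. In Gm36220 the 70-base snoRNA lies within the 297-base span. Whether its reads count towards the locus depends on the exons of Gm36220, which are not known here.

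Host genes of snoRNAs are known for a pyrimidine run at the start of transcription, the 5′ terminal oligopyrimidine tract that they share with ribosomal protein genes. Promoters matched for 125 members, among them 16 of the 18 hosts. A C followed by at least 4 pyrimidines, beginning within 5 bases of an annotated start, was present in 8 of 16 hosts, 29.4% of the other members and 21.2% of all 27025 genes with a promoter. These shares were not tested. Windows from 20 bases before the start to 30 bases from it (RefSeq, GRCm38.p6) show the run in capitals for 6 of these 8 hosts.
Gas5, chr1:161035146-161035195, plus strand: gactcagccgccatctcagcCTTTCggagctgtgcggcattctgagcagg
Snhg8, chr3:123508307-123508356, minus strand: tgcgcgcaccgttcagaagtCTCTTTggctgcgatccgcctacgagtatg
Gm36220, chr11:106500895-106500944, plus strand: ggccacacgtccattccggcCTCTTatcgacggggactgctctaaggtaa
2410006H16Rik, chr11:62602857-62602906, plus strand: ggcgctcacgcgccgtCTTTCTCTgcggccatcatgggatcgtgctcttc
Snhg3, chr4:132353657-132353706, minus strand: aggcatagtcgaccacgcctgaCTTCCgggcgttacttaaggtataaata
5730408K05Rik, chr19:8888741-8888790, minus strand: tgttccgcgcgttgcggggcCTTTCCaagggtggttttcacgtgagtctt
Promoters of hosts had a median of 25 CG dinucleotides, against 9 in other members and 8 over all. TATAAA, searched on both strands, was in 7 of 16 hosts (43.8%) against 15.7% of all promoters. A match is a description of the letters and not of a bound site.

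Proteins of the snoRNA particles were compared from a list of 10 genes, 9 of them tested. Of these 1 rose and 0 fell, 8 had a positive difference, and the median was 0.16. Dkc1, the pseudouridine synthase of H/ACA particles, read 34.7 and 35.8 FPKM in knockout and 21.1 and 23.5 in WT (log2 difference 0.64, SE 0.12, adjusted p = 0.019). Nop58, a core protein of box C/D particles, read 30.7 and 34.9 against 27.2 and 25.2 and did not pass (0.31, adjusted p = 0.27). Spliced snoRNA hosts are known targets of nonsense-mediated decay. Of the 10 decay factors tested none passed (0 at an unadjusted p under 0.05), 9 had a negative difference, and the median was -0.11. The smallest p-values were those of Smg5 (-0.34, adjusted p = 0.38) and Smg8 (-0.39, adjusted p = 0.40).

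Nuclear and chromatin-associated lncRNAs among the members were Malat1, Oip5os1, Dleu2, Lncpint and Norad. Malat1 fell, and the other 4 did not pass. Oip5os1, known as Cyrano and for its site for miR-7, read 74.5 and 79.4 FPKM in knockout and 64.2 and 72.9 in WT, without overlap (log2 difference 0.17, adjusted p = 0.50). Lncpint, a transcript induced by p53, read 5.97 and 4.52 against 5.57 and 5.82. Norad, which binds Pumilio proteins, read 4.78 and 4.72 against 6.82 and 4.73. The signs of Lncpint and Norad changed when knockout replicate 2 or WT replicate 1, respectively, was left out. Of 7 paraspeckle protein genes and 14 genes of the nuclear RNA exosome and its adaptors, none passed, and 0 and 1 had an unadjusted p under 0.05. Hnrnpk, an RNA-binding protein (0.16, adjusted p = 0.37), and Nono, a core paraspeckle protein (-0.13, adjusted p = 0.57), had the smallest p-values in the first, and Exosc2, an exosome subunit (0.46, adjusted p = 0.12), and Exosc9, another (0.27, adjusted p = 0.40), in the second. Of 6 genes of the 7SK particle none passed (0 at an unadjusted p under 0.05), with Hexim1, an inhibitor of the elongation kinase, (-0.41, adjusted p = 0.46) and Ccnt1, a cyclin of that kinase, (-0.16, adjusted p = 0.76) lowest in p.

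The 6 members that hold a microRNA gene were Snhg20, Dleu2, Gm10505, E130102H24Rik, 2900076A07Rik and 5730408K05Rik. None passed in the limma test (0 at an unadjusted p under 0.05), 5 had a negative difference, and the median was -0.24. Dleu2, host of miR-15a and miR-16-1, read 8.05 and 12.5 FPKM in knockout and 13.6 and 11.5 in WT. E130102H24Rik, at the miR-101a locus, read 5.88 and 12.2 against 12.4 and 10.8, and the knockout replicates were far apart. Without knockout replicate 1 the difference turned to 0.06, and without knockout replicate 2 it was -0.87 and passed. The microRNAs of these hosts are shown with bases 2 to 8, the seed that pairs with targets, in capitals (RefSeq).
mmu-miR-15a-5p in Dleu2: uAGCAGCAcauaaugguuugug
mmu-miR-16-5p in Dleu2: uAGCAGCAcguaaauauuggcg
mmu-miR-101a-3p in E130102H24Rik: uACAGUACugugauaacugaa
The 2 microRNAs of Dleu2 share the seed AGCAGCA, and miR-101a has another. Mature microRNAs were not measured. Of 6 microRNA processing genes tested none passed (0 at an unadjusted p under 0.05). Drosha, the nuclear enzyme that cuts the hairpin, had a difference of 0.42 (adjusted p = 0.39), and Dicer1, the cytoplasmic enzyme, -0.30 (adjusted p = 0.60).

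Members at the opposite strand of a protein-coding gene, or named as antisense, numbered 45. Of these 1 rose (Gm36347) and 1 fell (Gm40184), against 3.33% of all genes called, and the median was 0.04. At an unadjusted p under 0.05 there were 13 of the 45, against 36 of all 150 members and 15.5% of all genes. Whether antisense members differ from the other members was not tested. The kit does not mark strand, so reads of a member and of its overlapping partner cannot be told apart. For both called members the partner was near 0. In other pairs the partner was abundant: 1810041H14Rik (mean 27.4 FPKM) overlaps Ubac2 (154 FPKM), and Rab10os (20.2 FPKM) overlaps Rab10 (61.5 FPKM). Their log2 differences were 0.20 and -0.05, and 0.04 and 0.08. Over 39 overlapping pairs with a tested partner, 22 differences had the same sign (Pearson r 0.19), and over 143 members and their nearest measured gene 72 did (r 0.09). Genes are not independent replicates, and the values of a pair share libraries and may share reads.

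By position, 143 members matched a RefSeq gene, of which 141 are typed as lncRNA. GENCODE types some of these otherwise, such as Gm12216 and 1500011B03Rik as protein-coding and BC064078 as a transcribed pseudogene. The spans ran from 297 to 157933 bases, with a median of 6737. A protein-coding gene overlapped 48 of the 143, on the opposite strand for 42, on the same strand for 5 and with unknown strand for 1. In 8 places 2 members lay within 100 kb of each other. At Art2b, an ADP-ribosyltransferase gene that fell (24.03 and 20.1 FPKM against 42.7 and 38.8, log2 difference -0.86, adjusted p = 0.0058), Gm19765 (17.1 and 19.2 FPKM against 24.2 and 22.3) and Gm45995 (2.54 and 4.19 against 6.30 and 5.09) also read lower in both knockout libraries than in both WT libraries, and neither passed. Gm45995 overlaps exons of Art2b on the opposite strand, so reads of the 2 cannot be told apart. Beside Slc20a1, a phosphate transporter gene (-0.52), AI847159 and Gm39932 had differences of -0.52 and -0.34. The 4 X-linked members, Gm8817, Gm42407, Gm15232 and Kantr, all had negative differences, from -0.79 to -0.06, and none passed (2 at an unadjusted p under 0.05). Of all 150 members, 86 had a negative difference and 36 an unadjusted p under 0.05. Gm8817 and Gm15232 lie within 100 kb of each other, and a shift of X-linked genes as a set was not tested. The sign for Kantr turned without knockout replicate 1 or WT replicate 1.

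Replicate spread limits what can be seen, and it was widest at the low end. Among members between 4.2 and 10 FPKM, the median difference between replicates was 0.34 on the log2 scale in knockout and 0.27 in WT, against 0.21 and 0.18 for protein-coding genes at that level. Between 10 and 100 FPKM it was 0.19 and 0.15 for members and 0.15 and 0.12 for coding genes. At 100 FPKM and above it was 0.22 and 0.12 for the 7 members and 0.10 and 0.08 for coding genes. The non-coding members thus varied more between replicates than coding genes of similar level in each of these comparisons, which were not tested.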

How the data were processed

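The authors deposited FPKM values per gene for 4 liver ILC1 libraries. TRIzol total RNA was amplified as full-length cDNA and made into libraries with a transposase kit, per the labels' protocols, and such a kit does not mark strand. Per the submitters' processing notes, fastp, HISAT2, HTSeq, DESeq2 and R 3.2.0 were used with mm10, with no role or order given. Reads could not be recovered, so no count test was run. Depth was estimated from the step between low values of single-exon genes, of which only 30.9% to 39.8% per library lay within 0.05 of a whole read. At the level of member 150 this is about 165 to 174 reads per kilobase.

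Values were analysed as log2(FPKM + 1), a scale that understates changes of low genes, and the 9476 genes whose mean reached 1 FPKM were tested. Knockout (n = 2) was compared with WT (n = 2) by a two-sided limma 3.58.1 model (R 4.3.3) that lets the variance follow the level, without covariates, with Benjamini-Hochberg adjustment over all genes and a threshold of 0.05. The test was checked on data simulated with the variance of its own model. That check cannot show how genes that vary more than the model allows affect the calls. An exact permutation test of 2 against 2 cannot go below 0.333. Python 3.11.15 was used for the rest.

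Members, gene lists and named genes were chosen with earlier results of these data known. The named genes are the 15 most abundant members, the called members, the 5 most abundant of each class, 2 on either side of the boundary, their overlapping or nearest genes, and in each related list the 2 of smallest p. Epb41l4aos, Snhg17, Rab10os and members named for lying beside another were chosen after their values were seen, as were others where the text says so. Entrez identifiers placed 143 of 150 members on GRCm38.p6, the assembly of mm10, in RefSeq, and 100 had a GENCODE M21 gene. "Nearest measured" means the closest protein-coding gene at 1 FPKM or more. Alternatives were pseudocounts, filters, scalings, variance settings, other member choices and each library left out.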

Additional observations from a re-analysis of the deposited data

How the results depend on the processing

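No paired analysis was possible because the groups share only replicate number 1. The number of members past the test was 10 in the fit reported and from 10 to 12 under the other pseudocounts, scalings, the robust variance, the filter at a mean of 5 FPKM and the 3 other choices of members. It was 0 with no filter (27 at an unadjusted p under 0.05) and 2 without the trend; the cause was not tested. Leaving out each library in turn gave 11 to 21, with 21 without knockout replicate 1. The members' mean share of the summed FPKM was 0.890% without the most abundant member.

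For 36 named members, 503 values under alternatives were computed, of which 457 kept direction and side of the threshold, 24 lost a call, 5 gained one and 17 turned in sign. Leaving out 1 library at a time moved the log2 difference across 0 for 12 of these 36 (51 of all 150 members, none of them called). It ran from -0.20 to 0.021 for Gm36220 (turned without knockout replicate 2), from -0.022 to 0.073 for Gas5 (WT replicate 1), from -0.0072 to 0.23 for Gm33104 (knockout replicate 2), from -0.19 to 0.47 for Snhg3 (knockout replicate 2) and from -0.0042 to 0.16 for 2410006H16Rik (WT replicate 1). It ran from -0.28 to 0.058 for Lncpint (knockout replicate 2), from -0.44 to 0.0041 for Norad (WT replicate 1), from -0.60 to 0.0039 for Gm10505 (knockout replicate 2) and from -0.87 to 0.064 for E130102H24Rik (knockout replicate 1). For Gm5547 it ran from -0.20 (WT replicate 3) to 0.41, with -0.055 without knockout replicate 1. For 2900076A07Rik it ran from -0.42 to 0.20 (knockout replicate 2), with 0.024 without WT replicate 3, and for Kantr from -0.55 to 0.42 (knockout replicate 1), with 0.16 without WT replicate 1. Gas5 also turned with quantile normalization (-0.044) and with a library sum without haemoglobin and mitochondrial genes (-0.00079). No called member turned in sign under any of the 14 alternative fits, and the cause of the turns was not tested. Low levels and 2 libraries a group limit the precision.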

Other observations

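Some of the best known lncRNAs lay below the 150 members, and 2 of them rose. They were named after their values were seen. Of the 254 non-coding genes tested outside the members, 2 were higher in knockout (0.787%) and 3 lower (1.18%). Over all genes tested these shares were 2.4% and 0.939%. Mir155hg, the host of miR-155, which activated lymphocytes and macrophages make, read 4.32 and 3.79 FPKM in knockout and 0.744 and 1.44 in WT (log2 difference 1.29, SE 0.24, limma adjusted p = 0.015). Macrophage markers were higher in the same libraries, and their part was not tested. Snhg12, a snoRNA host, read 3.13 and 3.47 FPKM against 0.965 and 1.48 (0.96, SE 0.23, adjusted p = 0.046). With it, 1 of the 20 tested genes of the snoRNA host list rose. Ifngas1, the antisense neighbour of Ifng, read 2.62 and 3.12 against 1.18 and 1.01 and did not pass (0.88, adjusted p = 0.060).

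In the list of nuclear lncRNAs, 7 of 9 tested genes had a negative difference and 1, Malat1, fell. Neat1, the scaffold of paraspeckles, read 2.02 and 2.54 FPKM in knockout and 4.06 and 3.27 in WT (-0.51, adjusted p = 0.29). Xist, the RNA of the inactive X chromosome, read 1.30 and 0.729 against 3.58 and 2.32 (-0.97, adjusted p = 0.074). The Y-linked Ddx3y lay between 14.05 and 17.7 FPKM in all 4 libraries, with overlap of the genotypes. Y-linked Eif2s3y read 15.3 and 15.3 FPKM in knockout against 11.6 and 12.1 in WT, and Kdm5d 2.34 and 1.65 against 1.18 and 1.44. Uty overlapped (1.87 and 1.14 against 1.19 and 0.782). A difference in the sex of the mice between genotypes was not tested. Each library thus held both Xist and a Y-linked mRNA.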
